A study of Mus musculus with 8 samples.

Results

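Cdx1, Cdx2, Hnf4a, Hnf4g, Gata4, Gata6, Klf5 and Elf3 encode transcription factors that set and hold the identity of the intestinal epithelium. They were chosen by name, as 8 of the 21883 protein-coding genes in the RefSeq table for GRCm38.p6. Each gene was described over its locus, meaning the gene body with 50 kb on each side, in 16 peak lists of histone acetylation. The mice were male C57BL/6J, aged 9 weeks, and crypts of their small intestine were profiled by CUT&Tag. In this assay an antibody brings a transposase to a histone mark, and the DNA it cuts there is sequenced. The marks were H3K27ac, found at active enhancers and promoters, and H3K9ac, found mostly at active promoters.

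Each mark had 4 groups of 1 sample. The groups were Fed without tetracycline, Fast without tetracycline, Fed with tetracycline and Fast with tetracycline. Fast mice went without food for 24 h, and tetracycline, an antibiotic, was given for 21 days. Each sample had 2 peak lists, numbered 1 and 2, with no statement of whether they came from different mice, so every p-value below measures the spread between lists, which may be technical. The comparisons ask whether fasting changes acetylation in crypts and whether tetracycline alters that.

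The CDX homeobox factors direct the intestinal program, and loss of Cdx2 lets gut epithelium take on features of more anterior gut. The nuclear receptors HNF4A and HNF4G act together on enterocyte and lipid genes. The zinc-finger factors GATA4 and GATA6 pattern the small intestine along its length, with Gata4 expressed proximally and absent from the distal ileum. KLF5 is a zinc-finger factor of proliferating crypt cells, and ELF3 is an epithelial ETS factor. Genes that define cell identity often carry long runs of H3K27ac.

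The lists themselves differed. H3K27ac lists held between 32392 and 68545 peaks and H3K9ac lists between 17249 and 99050, with an unknown number of reads behind each. Lists numbered 1 and 2 stood apart within groups. At the 8 loci, list 2 covered more than list 1 in 32 of 32 pairs of a gene and a group for H3K27ac and in 28 of 32 for H3K9ac, although the Fast lists 1 held the most peaks of each mark. This order did not hold over the whole genome. There, H3K9ac Fast lists 1 and 2 covered 47.3 and 27.1 Mb without tetracycline and 47.2 and 30.5 Mb with it. H3K27ac Fast lists 1 and 2 with tetracycline covered 51.1 and 48.2 Mb. In the remaining groups list 2 covered more. Of 6 epithelial markers, 6 had a peak within 1 kb of a gene end in every H3K27ac list, and 5 or 6 did in the H3K9ac lists. None of 4 endothelial and none of 4 neural markers was marked in any H3K27ac list, whereas 0 to 1 of 7 stromal and 2 to 5 of 8 immune markers were. In H3K9ac lists, 0 to 3 immune, 0 to 4 stromal, 0 to 1 endothelial and 0 to 1 neural markers were marked. The 4 stromal markers and the 1 endothelial marker were in list 1 of Fast with tetracycline, against 0 of both in the Fed lists with tetracycline. The part of these cells in the results below was not tested.

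Start windows from RefSeq on GRCm38.p6 were matched by symbol for Cdx2 and Elf3, with 1 window each, and for Hnf4a, with 2 whose start sites lie 40.3 kb apart. The 250 bases before each start are shown because the 2 Hnf4a starts carried different acetylation and the other promoters were among the most strongly marked in the lists. Capitals mark matches to 7 short motifs searched on both strands.

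Cdx2, chr5:147307250-147307499, minus strand: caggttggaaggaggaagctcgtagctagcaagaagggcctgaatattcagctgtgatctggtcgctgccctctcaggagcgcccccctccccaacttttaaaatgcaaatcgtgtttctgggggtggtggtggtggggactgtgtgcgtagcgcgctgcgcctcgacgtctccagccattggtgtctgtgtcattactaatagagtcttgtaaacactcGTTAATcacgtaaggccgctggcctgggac
Elf3, chr1:135258473-135258722, minus strand: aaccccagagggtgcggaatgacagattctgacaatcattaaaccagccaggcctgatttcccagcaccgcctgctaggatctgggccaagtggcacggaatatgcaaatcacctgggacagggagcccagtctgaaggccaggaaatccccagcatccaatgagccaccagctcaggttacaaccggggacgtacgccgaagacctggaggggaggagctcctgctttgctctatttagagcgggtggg
Hnf4a upstream start, chr2:163506607-163506856, plus strand: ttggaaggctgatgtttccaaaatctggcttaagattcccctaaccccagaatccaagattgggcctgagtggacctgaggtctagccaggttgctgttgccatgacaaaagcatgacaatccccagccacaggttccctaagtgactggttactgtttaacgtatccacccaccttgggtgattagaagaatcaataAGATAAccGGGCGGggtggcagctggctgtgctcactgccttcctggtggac
Hnf4a downstream start, chr2:163546905-163547154, plus strand: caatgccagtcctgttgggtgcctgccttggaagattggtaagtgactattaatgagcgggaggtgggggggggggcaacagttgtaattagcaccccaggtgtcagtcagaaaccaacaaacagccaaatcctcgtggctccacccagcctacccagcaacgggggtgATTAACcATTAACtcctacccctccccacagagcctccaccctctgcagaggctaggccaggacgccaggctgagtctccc

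The letters searched were TTTATG for CDX factors, CAAAGTC for HNF4 factors, AGATAA for GATA factors, GGGCGG for SP/KLF factors, GGAAGT for ETS factors, GTTAAT for HNF1 factors and TATAAA for the TATA box, in windows of 300 bases that also took in the first 50 bases of the transcript. The Cdx2 window held 1 HNF1 match, 30 bases before the start. The Hnf4a upstream window held a GATA match 52 bases before the start and an SP/KLF match 44 bases before it. The downstream window held 2 HNF1 matches, read on the minus strand, 81 and 74 bases before the start. The Elf3 window held none of the 7. No matches overlapped. Among all 32851 windows, 7.1% held the HNF1 letters, 11.2% the GATA letters and 35.7% the SP/KLF letters, against 11.9% for CDX, 4.44% for HNF4, 23.8% for ETS and 13.6% for TATA.

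The Cdx2 and Elf3 windows were fully covered by peaks of both marks in all 8 lists of each. Across all windows, 19.7% were fully covered in all 8 H3K27ac lists and 8.47% in all 8 H3K9ac lists. The peaks over these starts ranked high in every list by the authors' score, which was used only to rank peaks within a list. For Elf3, the percentile of the H3K9ac peak within its list was never below 99.4, with a median of 99.9. For Cdx2, it was never below 93.2, with a median of 99.6. The H3K27ac peaks ranged lower, down to percentile 87.4 for Elf3 (median 98.1) and 85.6 for Cdx2 (median 98.2).

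The Hnf4a starts differed from each other. The downstream window was fully covered in all 8 lists of both marks, and its H3K9ac peak was never below the 97.6 percentile of its list, with a median of 99.8. The upstream window was fully covered in all 8 H3K27ac lists but in 6 of 8 H3K9ac lists. It had no H3K9ac peak in list 1 of Fed or in list 2 of Fast, both without tetracycline. Where present, its H3K9ac peak had a median percentile of 74.6 and a range of 24.1 to 90.8, below the lowest value of the downstream start. For H3K27ac, the upstream peak lay between percentiles 64.9 and 86.5 and the downstream peak between 82.7 and 98.1. The downstream start had the higher-ranked peak in 7 of 8 H3K27ac lists and the higher-ranked or only peak in all 8 H3K9ac lists. The exception was list 1 of Fast without tetracycline, at percentiles 86.5 upstream and 82.7 downstream.

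**Figure D1:**
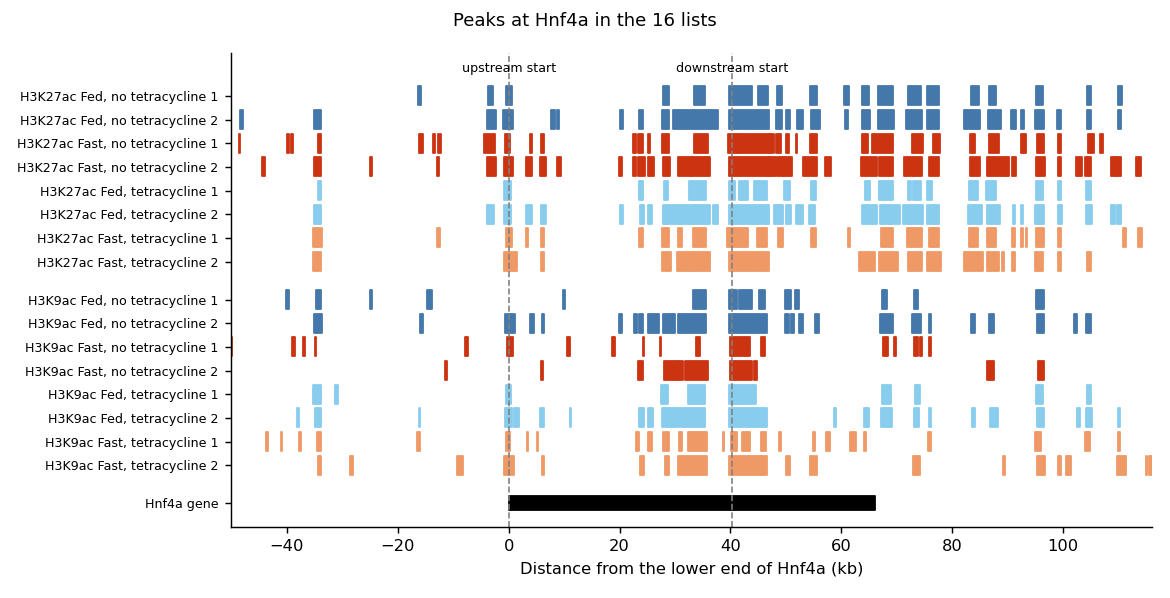
Peaks at Hnf4a in each of the 16 lists (rows, coloured by group; each bar is 1 peak drawn to scale), by distance in kb from the lower-coordinate end of the gene. Dashed lines mark the 2 start sites, 40.3 kb apart; the downstream start is covered in all 16 lists, and the upstream start lacks an H3K9ac peak in 2 lists.

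All 8 genes had an H3K27ac peak within 1 kb of a gene end in all 8 lists, as did 33.6% of all genes. For H3K9ac, 6 of the 8 had one in all 8 lists, against 21.1% of all genes. The exceptions were Hnf4g, marked in 7 H3K9ac lists, and Hnf4a, marked in 6 at the ends of its gene model, which do not include the downstream start. The deposited scores placed the gene-end peak among the top 10% of its H3K27ac list in all 8 lists for Cdx1, Cdx2, Hnf4a, Gata6 and Elf3, a pattern held by 2.5% of genes. Either end could meet this. At Hnf4a the upper end did, at percentiles 94.0 to 99.2, while the lower end, with the upstream start, lay between 64.9 and 86.5. At Cdx1 the lower end lay between 92.8 and 99.1 and the upper end between 9.24 and 96.6. For H3K9ac the same held for Cdx2, Gata6, Klf5 and Elf3, against 1.44% of genes.

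The same 4 genes had the highest peak coverage of the locus under both marks. Elf3 had the highest H3K27ac coverage, 27.4% ± 4.41 of its locus (SD, n = 8 lists), followed by Hnf4a at 24.1% ± 6.94, Cdx2 at 23.2% ± 4.32 and Gata4 at 22.1% ± 5.10. Compared within lists, Elf3 lay above Gata4 in 8 of 8, by 5.33 percentage points on average, but the order of neighbours varied: Elf3 was above Hnf4a in 6 of 8 lists, Hnf4a above Cdx2 in 6 and Cdx2 above Gata4 in 5. Cdx1 (12.8% ± 4.39), Klf5 (11.9% ± 3.87) and Gata6 (10.1% ± 3.0) were lower, with Cdx1 below Gata4 in 8 of 8 lists. Among these 3, Cdx1 was above Klf5 in 7 of 8 lists and Klf5 above Gata6 in 6. Hnf4g was lowest at 5.05% ± 1.67, below Gata6 in 8 of 8 lists, in the largest gene of the 8, spanning chr3:3508030-3659800. The median over all genes was 2.84%, and the first 4 genes lay between the 98.98 and 99.7 percentile of all loci, and Hnf4g at the 65.4.

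For H3K9ac, Cdx2 was highest with 18.3% ± 5.39 of its locus (SD, n = 8 lists), at the 99.9 percentile of all loci. Gata4 (14.4% ± 3.98), Elf3 (13.8% ± 1.98) and Hnf4a (12.7% ± 4.70) followed, each at or above the 98.7 percentile. Gata6 (9.90% ± 2.72), Klf5 (9.18% ± 3.14) and Cdx1 (6.69% ± 2.99) came next. Cdx2 was above Gata4 in 8 of 8 lists and Cdx1 above Hnf4g in 8 of 8. The neighbours between kept their order in 4 to 7 of 8 lists, with Gata4 above Elf3 in 4 and Klf5 above Cdx1 in 7. Hnf4g had 2.13% ± 1.05, near the median of all genes, 2.26%.

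**Figure D2:**
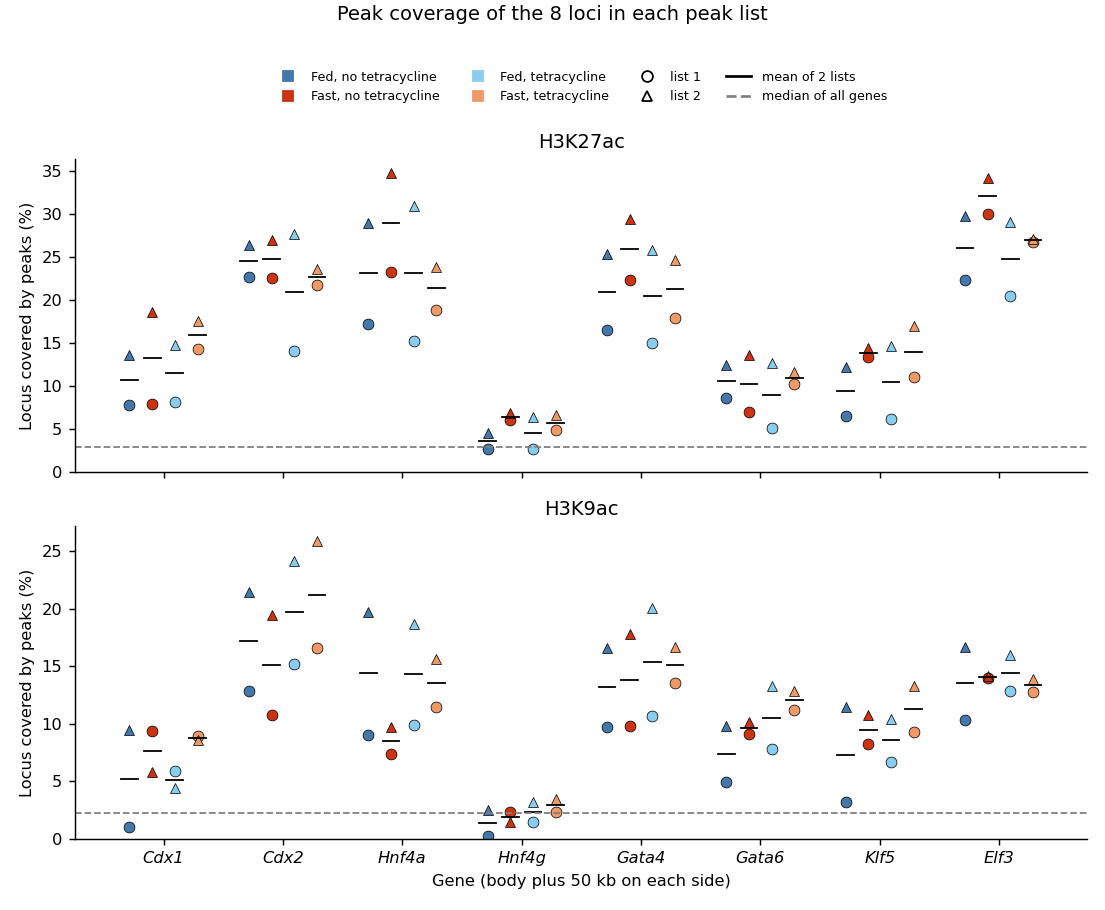
Share of each locus (%) covered by H3K27ac peaks (upper panel) and H3K9ac peaks (lower panel), for each gene and group; circles are list 1, triangles list 2, bars the mean of the 2 lists, and the dashed line the median of all genes. Hnf4g sits lowest under both marks, and list 2 lies above list 1 for most genes and groups.

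Other gene lists had lower ranks. The median percentile of the 8 genes was 95.2 for H3K27ac and 97.6 for H3K9ac. For 20 other regulators of gut epithelium it was 77.9 and 71.8, and for 20 absorptive genes such as those of the brush border and lipid transport, 89.6 and 89.6. For 16 relatives and factors of other organs it was 31.1 and 36.5, and 8 of those 16 were marked at a gene end in no H3K27ac list. These lists were chosen with results of these data known and are descriptions.

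Related genes differed in how much of the gene body was covered. Of the CDX genes, Cdx2 was covered over almost its whole body, with a median of 96.8% for H3K27ac and 99.1% for H3K9ac, against 45.5% and 18.3% for Cdx1. Elf3, similarly compact, had body medians of 97.6% and 99.3%. Klf5 had 48.0% for H3K27ac and 61.2% for H3K9ac. The GATA genes differed under H3K27ac, with 38.6% for Gata4 and 21.4% for Gata6, and under H3K9ac with 28.7% and 21.6%. In the HNF4 genes, Hnf4a had 29.5% and 20.3%, and Hnf4g 7.47% and 3.24%. Gene length differs between members, and its part in these shares was not tested.

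By the median over lists of the widest gene-end peak, H3K27ac peaks were widest at Gata6, Cdx2 and Elf3. A gene-end peak of at least 5 kb was present in 4 or more H3K27ac lists at Cdx2, Gata6 and Elf3, against 0.535% of genes. In H3K9ac lists the same held for Cdx2, Gata6, Klf5 and Elf3, against 0.151% of genes. Klf5 differed between the marks, with a 5 kb peak in 1 H3K27ac list and 4 H3K9ac lists and medians of 2.52 and 4.71 kb. The widest H3K27ac peak at an end of Cdx2 measured 12.9 kb, in list 2 of Fast without tetracycline. The widest H3K9ac peak at the lower end of Gata6 measured 11.1 kb, in list 2 of Fed with tetracycline. In at least 1 list, such a peak was present at 6 of the 8 genes for H3K27ac (1.94% of all genes) and at 5 for H3K9ac (0.827%), with Hnf4a and Hnf4g in neither set.

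Width followed the list number. Over the 8 genes, lists 1 held 2 of the gene-by-list cases with a 5 kb H3K27ac peak and lists 2 held 17, and for H3K9ac the numbers were 4 and 17. By feeding, Fast lists held 13 and Fed lists 6 of the H3K27ac cases, and 12 and 9 of the H3K9ac cases. Over the genome, lists 1 held 232 and lists 2 1079 H3K27ac peaks of this width, and 54 and 325 H3K9ac peaks. For H3K27ac, 757 of these peaks came from Fast lists and 554 from Fed lists. For H3K9ac the split was 158 Fast against 221 Fed, the reverse of the order at the 8 genes. What separates lists 1 from lists 2 is not given in the sources used here.

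**Figure D3:**
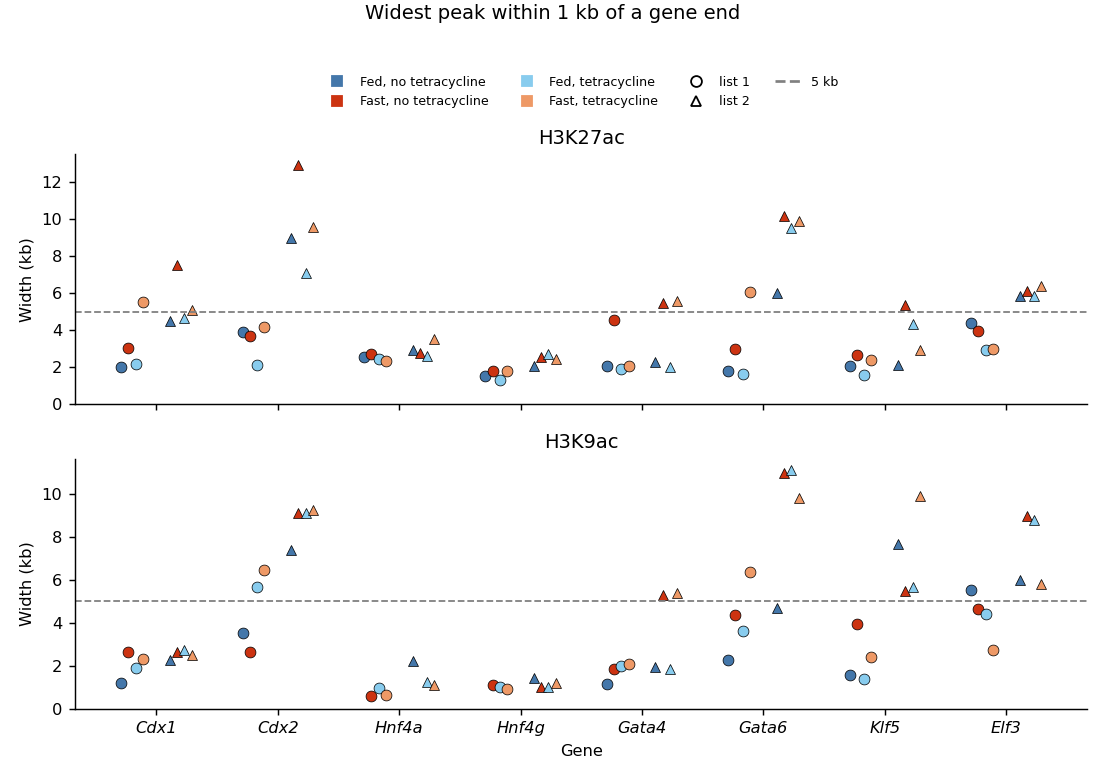
Width in kb of the widest peak within 1 kb of a gene end, for each gene, H3K27ac above and H3K9ac below; circles are list 1, triangles list 2, colours the groups, and the dashed line 5 kb. The triangles at Cdx2, Gata6 and Elf3 lie mostly above the line, and all points of Hnf4a and Hnf4g lie below it.

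At Gata4 the wide peak at the upper-coordinate end was seen in Fast lists. Its H3K27ac peak measured 2048 and 2300 bp in Fed lists 1 and 2 without tetracycline and 1889 and 2035 bp with it. In Fast lists 1 and 2 it measured 4572 and 5456 bp without tetracycline and 2063 and 5576 bp with it. The H3K9ac peak there measured 1137, 1953, 1975 and 1840 bp in the Fed lists in the same order, and 1863, 5313, 2064 and 5388 bp in the Fast lists. The ranges overlapped for H3K9ac, and 1 H3K27ac Fast list fell within the Fed range. This end was singled out after its values were seen, and the covered length of the whole region, chr14:63266544-63272551, did not follow it: 4.38, 5.15, 4.27 and 5.30 kb in the Fed lists and 4.57, 5.46, 4.28 and 5.58 kb in the Fast lists. In the Fed lists, and in Fast list 1 with tetracycline, the same stretch was thus covered by more than 1 peak. Each Fast list was above the Fed list of the same number and tetracycline state. The log2 difference, Fast minus Fed, was 0.06 without centring, where the median constant region of the genome had 0.11. With each list centred to its median region, the limma difference was -0.10 (SE 0.12, adjusted p = 0.841).

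To ask which elements of the loci were always acetylated, peaks of a mark that overlapped between lists were joined into regions. The 8 loci held 184 H3K27ac regions, of which 43 (23.4%) had a peak in all 8 lists, against 14.6% of regions in the genome. They held 275 H3K9ac regions, of which 18 (6.55%) were in all 8 lists, against 1.52%. Regions seen in a single list made up 32.6% for H3K27ac (genome 53.1%) and 63.3% for H3K9ac (genome 84.4%). At gene ends, 10 of 11 H3K27ac regions were in all 8 lists, compared with 17 of 67 in gene bodies and 16 of 106 in the flanks. For H3K9ac the counts were 6 of 13, 9 of 89 and 3 of 173.

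Most constant H3K9ac regions lay at constant H3K27ac regions, but not the reverse. All 18 constant H3K9ac regions overlapped H3K27ac peaks, 16 of them with a region present in all 8 H3K27ac lists. Of the 43 constant H3K27ac regions, 16 met an H3K9ac region present in all 8 lists, and 3 met none in any list. Those 3 were Hnf4g body regions chr3:3524965-3527115 and chr3:3582500-3583628, and a Gata4 flank region, chr14:63308420-63309730. In base pairs, the median share of H3K9ac covered by H3K27ac peaks of the same group and list number was 92.6% at Elf3, 85.3% at Cdx2, 81.7% at Gata4 and 54.4% at Hnf4g, against 55.6% over the genome.

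The widest constant H3K27ac region lay at a gene end in 6 of the 8 genes. At Cdx2 it spanned chr5:147298596-147318651 (20.1 kb), taking in the whole gene and reaching the end of the neighbour Urad. At Elf3 it spanned chr1:135248043-135260092 (12.1 kb), also with the whole gene inside. At Gata6 it spanned chr18:11046288-11056762 (10.5 kb), at Cdx1 chr18:61016271-61026522 (10.3 kb), at Klf5 chr14:99294106-99302739 (8.63 kb) and at Hnf4g chr3:3506953-3509746 (2.79 kb). The 2 exceptions lay inside the gene. At Hnf4a the widest constant region was chr2:163546225-163553769 (7.55 kb), which holds the downstream start printed above, and at Gata4 it was chr14:63243679-63252916 (9.24 kb).

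Hnf4a and Gata4 had the most constant H3K27ac regions, 10 each, followed by Hnf4g with 8 and Elf3 with 7, while the other 4 genes had 2 each. At Hnf4a, 5 of the 10 lay beyond the upper end of the gene in its flank, the farthest at the end of Ttpal. At Gata4, 6 of the 10 lay in the gene body, and it also had the most constant H3K9ac regions, 7. Hnf4g had 6 constant H3K27ac regions inside its long body and 1 constant H3K9ac region, chr3:3633465-3637704, also in the body and not at the gene end.

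**Figure D4:**
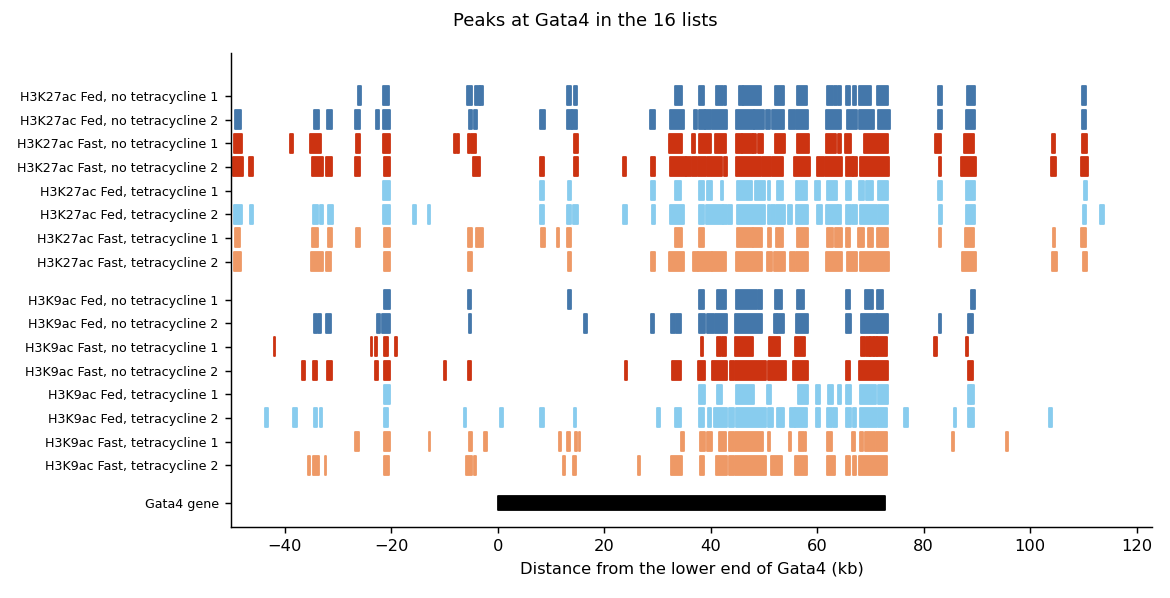
Peaks at Gata4 in each of the 16 lists (rows, coloured by group; each bar is 1 peak drawn to scale), by distance in kb from the lower-coordinate end of the gene. Peaks of both marks are dense over the upper part of the gene body in all 16 lists, where 6 of the 10 constant H3K27ac regions lie, and sparse over its lower part.

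The flanks also held other genes, whose peaks count towards the locus. Within 50 kb of Cdx2, Urad was marked at a gene end in 8 H3K27ac and 7 H3K9ac lists and Pdx1, a homeobox factor of pancreas and duodenum, in 7 and 8, whereas Flt3 was marked in 0 and 1. Of the Elf3 neighbours, Rnpep and Timm17a were marked in all 8 lists of both marks. Near Hnf4a, Ttpal was marked in 8 and 7 lists, Fitm2 in 7 and 7, and R3hdml in 5 and 4. Pdgfrb, a stromal receptor gene beside Cdx1, was marked in 0 H3K27ac lists and 1 H3K9ac list. Slc6a7 was marked in 4 and 2 lists and Gm52351, which overlaps Cdx1, in 7 and 8. Near Gata4, Neil2 was marked in 7 and 5 lists and Fdft1 in 0 and 1. Pibf1, near Klf5, was marked in 7 of each. No end of another protein-coding gene lay within 50 kb of Hnf4g or Gata6.

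None of the 8 loci passed the test for a fasting difference in coverage, given the spread between lists. The test was limma on log2 covered length plus a pseudocount of 500 bp, each list centred to its median locus, with Benjamini-Hochberg adjustment over all loci tested. For H3K27ac, 0 of 8 genes passed an adjusted p of 0.05, against 133 of 15745 loci (0.845%, a count that fell to 6 or rose to 338 when 1 list was left out), and 1 of 8 had an unadjusted p below 0.05, against 16.2%. For H3K9ac, 0 of 8 passed, against 1 of 16703 loci (0.00599%), and 1 of 8 had an unadjusted p below 0.05, against 11.8%. The median difference over the 8 genes was -0.02 for H3K27ac and -0.08 for H3K9ac, beside -0.03 and -0.03 over all loci. With every list limited to as many top-scoring peaks as the shortest, the H3K9ac median was 0.48, beside -0.07 over all loci. In that setting 7 of 8 genes were higher in Fast lists, against 4 of 8 with all peaks, and limma gave 3 an unadjusted p below 0.05 (10.6% of loci) and 0 an adjusted one. In these whole-crypt samples, fewer cells of a type and less acetylation per cell cannot be told apart.

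Hnf4g had the largest H3K27ac difference. Its peaks covered 6.75 and 11.5 kb in Fed lists 1 and 2 without tetracycline and 15.1 and 17.1 kb in the Fast lists. With tetracycline they covered 6.70 and 15.9 kb in the Fed lists and 12.2 and 16.6 kb in the Fast lists. The groups overlapped through the second Fed list with tetracycline. The limma log2 difference, Fast minus Fed, was 0.40 (SE 0.17, 95% interval 0.04 to 0.75, unadjusted p = 0.0311, adjusted p = 0.255). Within lists 1 alone it was 0.49, and within lists 2 alone 0.31.

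Klf5 came next. Its H3K27ac peaks covered 7.45 and 14.0 kb in Fed lists 1 and 2 without tetracycline and 15.3 and 16.5 kb in the Fast lists, then 6.997 and 16.8 kb in the Fed lists with tetracycline and 12.6 and 19.4 kb in the Fast lists. Fed and Fast lists overlapped. The limma log2 difference was 0.32 (SE 0.18, interval -0.07 to 0.71, adjusted p = 0.414).

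The other 6 genes had smaller H3K27ac differences. Cdx1 differed by 0.14 (interval -0.26 to 0.54) and Cdx2 by -0.13 (interval -0.40 to 0.13). Hnf4a differed by -0.08 (interval -0.38 to 0.22), Gata4 by -0.03 (-0.31 to 0.25), Gata6 by -0.07 (-0.45 to 0.30) and Elf3 by -0.01 (-0.24 to 0.22). Without centring, the 5 negative values turned positive, at 0.10 for Cdx2 and 0.16 to 0.23 for the rest, where the median of all loci was 0.20 higher in Fast lists.

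For H3K9ac, Hnf4a had the value nearest to the threshold. Its peaks covered 15.0 and 32.8 kb in Fed lists 1 and 2 without tetracycline and 12.2 and 16.1 kb in the Fast lists. With tetracycline they covered 16.5 and 31.1 kb in the Fed lists and 19.01 and 26.0 kb in the Fast lists. The Fed lists 2 were the highest of all, and the remaining lists overlapped. The limma log2 difference was -0.60 (SE 0.28, interval -1.20 to -0.0047, unadjusted p = 0.0484, adjusted p = 0.420).

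At Cdx1 the difference had the opposite sign. Its H3K9ac peaks covered 1.18 and 11.1 kb in Fed lists 1 and 2 without tetracycline, 11.05 and 6.79 kb in the Fast lists, 6.89 and 5.21 kb in the Fed lists with tetracycline and 10.5 and 10.1 kb in the Fast lists. The lowest value, in list 1 of Fed without tetracycline, came from the list with the fewest peaks. The limma log2 difference was 0.63 (SE 0.34, interval -0.09 to 1.34, adjusted p = 0.492). It was 0.16 without that list and 1.09 without list 2 of the same group. The other 6 genes lay between -0.31 for Cdx2 and 0.33 for Hnf4g, with adjusted p from 0.717 to 0.944.

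The H3K9ac differences are given for lists 1 and lists 2 side by side, and the contrast between them was not tested. With 1 list a group, the fit left out the interaction and had 1 residual degree of freedom, and each lone list is assumed to vary like the others, with the spread mostly borrowed across loci (16.7 prior degrees of freedom for lists 1). Within lists 1 alone, the lowest values were -0.94 for Cdx2 (SE 0.24) and -0.92 for Hnf4a (SE 0.24). Within lists 2 alone, Cdx2 stood at 0.31 (SE 0.24) and Hnf4a at -0.29 (SE 0.24). Cdx2 therefore had opposite signs in the 2 sets of lists. The Fast lists 1 also held 99050 and 97764 H3K9ac peaks, against 17249 and 24643 in the Fed lists 1, and the part of this gap in the result was not tested.

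**Figure D5:**
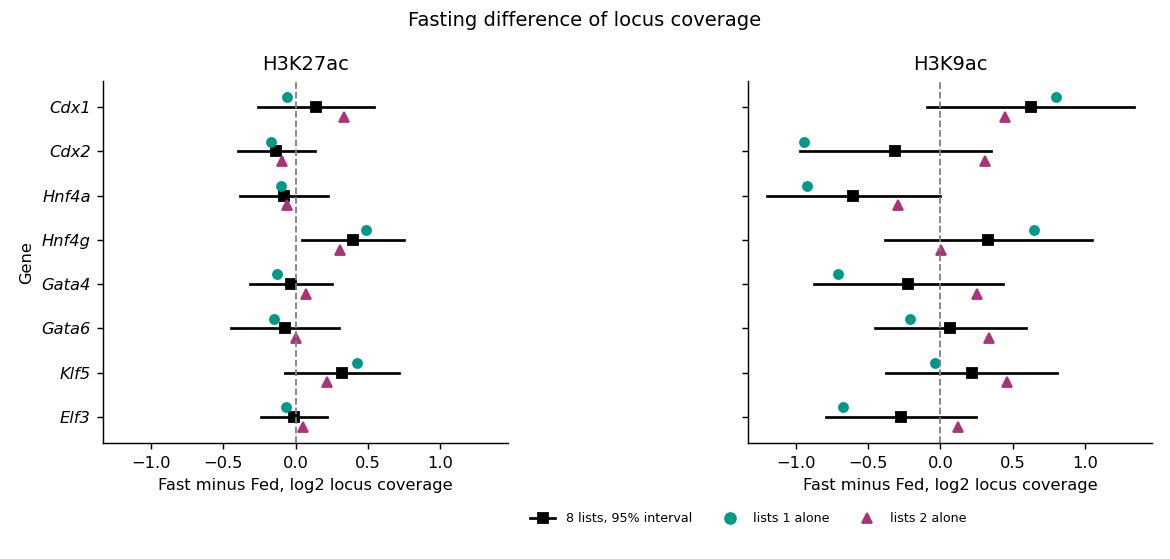
Fast minus Fed difference in log2 locus coverage (horizontal axis) for each gene, H3K27ac left and H3K9ac right; squares with bars are the limma estimate over 8 lists with its 95% interval, circles the value in lists 1 alone and triangles in lists 2 alone. H3K27ac intervals include 0 except that of Hnf4g (0.04 to 0.75), and for H3K9ac the circles and triangles of Cdx2, Gata4, Gata6, Klf5 and Elf3 lie on opposite sides of 0.

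No gene had every Fast list above or every Fed list above in centred coverage, patterns that 4.66% and 4.62% of loci showed for H3K27ac and 2.16% and 4.88% for H3K9ac. At gene ends, none of the 8 was marked in all 4 Fast lists and no Fed list of a mark, or the reverse. Those patterns were held by 0.096% and 0.0137% of genes for H3K27ac and by 0.0777% and 0.0411% for H3K9ac.

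The separate tests without and with tetracycline gave no calls either. For H3K27ac without tetracycline, limma called 0 of 8 genes (0.0318% of all loci), with 1 at an unadjusted p below 0.05 (12.1%), Hnf4g at 0.52 (adjusted p = 0.402). With tetracycline it called 0 of 8, with 0 at an unadjusted p below 0.05 (8.56%). For H3K9ac without tetracycline it called 0 of 8, with 1 at an unadjusted p below 0.05 (7.32%), Hnf4a at -0.90 (adjusted p = 0.669), and with tetracycline 0 of 8 with 0 at an unadjusted p below 0.05 (6.32%).

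None of the 8 loci passed the test for tetracycline. For H3K27ac, limma called 0 of 8 genes (0.0762% of all loci), with 0 at an unadjusted p below 0.05 (7.01%), and the largest difference, with minus without tetracycline, was 0.37 at Cdx1 (SE 0.19, adjusted p = 0.753). For H3K9ac it called 0 of 8, with 1 at an unadjusted p below 0.05 (2.98%): Hnf4g at 0.75 (SE 0.34, interval 0.03 to 1.46, adjusted p = 0.9997). The H3K9ac peaks of Hnf4g covered 0.68, 6.42, 5.80 and 3.58 kb in the 4 lists without tetracycline and 3.61, 8.09, 5.92 and 8.74 kb in the 4 with it, and the groups overlapped. The interaction of fasting and tetracycline gave 0 calls in 8 for both marks by limma, with 0 at an unadjusted p below 0.05 (4.06% of loci for H3K27ac and 2.45% for H3K9ac). Its largest H3K27ac value was 0.65 at Gata6 (interval -0.10 to 1.41, adjusted p = 0.9996).

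Single regions were more uneven than loci in a few places. Just 1 region of the 8 loci, chr14:63302834-63303884 in the Gata4 flank, had an H3K27ac peak in every Fast list (4 of 4) and in 0 Fed lists, a pattern of 0.4% of H3K27ac regions. No region had the reverse pattern (0.0837% of regions), and for H3K9ac no region had either (0.0189% and 0.0145%). It lies 31.1 kb beyond the upper end of the gene. Counting differences of at least 3 lists, 5 H3K27ac regions favoured Fast and 1 favoured Fed, against 2.11% and 0.71% of regions in the genome, so 5 of 184 is a share near that background. With every list limited to as many top-scoring peaks as the shortest, the counts among 125 regions were 2 for Fast and 3 for Fed. The genome shares were then 2.32% and 2.27%, and no region of the 8 loci was in every Fast and no Fed list. In the Hnf4a body, chr2:163512520-163513566, between the 2 starts, had a peak in 4 Fast and 1 Fed lists. A Hnf4a flank region inside R3hdml, chr2:163493803-163494556, had one in 3 Fast and 0 Fed lists, as did chr1:135260449-135261692 beside Elf3 and chr18:61072924-61073822 inside Pdgfrb near Cdx1. The region favouring Fed was chr1:135294817-135295603 near Elf3, with 4 Fed lists and 1 Fast list.

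For H3K9ac, 1 region favoured Fast by at least 3 lists (0.33% of regions) and 1 favoured Fed (0.225%). With the equal numbers of top-scoring peaks, the counts among 106 regions were 0 and 7 (0.0939% and 2.02% of regions in the genome). In that setting 1 H3K9ac region was in every Fed and no Fast list (0.301% of regions). With all peaks, the region favouring Fast was chr18:61068122-61069220 inside Pdgfrb, in 3 Fast and 0 Fed lists. The other was chr2:163573843-163576054, just beyond the upper end of Hnf4a, in 4 Fed lists and 1 Fast list; H3K27ac was present there in all 8 lists. By tetracycline, 2 H3K9ac regions were present in each of the 4 lists with it and absent without it, against 0.0189% of regions, and 0 had the reverse (0.00879%): chr14:63260727-63262701 in the Gata4 body and chr18:11081791-11082752 in the Gata6 body. Both overlap H3K27ac regions present in all 8 lists. The count of 2 became 0 with equal numbers of top-scoring peaks and 1 with peaks merged across gaps of up to 500 bp. No H3K27ac region had either pattern (0.024% and 0.0882% of regions). These counts have no test.

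The covered length of the constant regions, centred to the median region of each list, was compared in the same way, a test added after the data were seen. For H3K27ac, limma called 0 of 43 regions of the 8 loci, against 0.0244% of 16401 regions, and 5 had an unadjusted p below 0.05, against 10.1%. The lowest was the Cdx1 region at chr18:61016271-61026522, which had 3.04, 5.29, 3.64 and 7.37 kb covered in the Fed lists and 5.94, 8.79, 6.61 and 8.20 kb in the Fast lists, a log2 difference of 0.52 (SE 0.16, adjusted p = 0.341). The Hnf4g body region chr3:3524965-3527115, which had no H3K9ac peak, differed by 0.93 (SE 0.29, adjusted p = 0.345), and a Gata6 body region, chr18:11081496-11083244, by -0.59 (SE 0.21, adjusted p = 0.393). Without centring these 3 values were 0.68, 1.08 and -0.44. For H3K9ac, limma called 0 of 18 regions, with 0 at an unadjusted p below 0.05 (6.65%).

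The other lists of genes gave no call in fasting either. Over all loci, 16.2% had an unadjusted limma p below 0.05 for H3K27ac and 11.8% for H3K9ac. Of 20 absorptive genes, 16 had lower H3K27ac coverage and 4 higher in Fast lists, with a median log2 difference of -0.22 and 0 past the threshold by limma (7 at an unadjusted p below 0.05). Alpi, the brush-border alkaline phosphatase, had -0.72 (adjusted p = 0.126), Apob, the lipoprotein scaffold, -0.50 (adjusted p = 0.283), and Krt20, a keratin of differentiated cells, -0.34 (adjusted p = 0.269). For H3K9ac 17 of 20 were lower, with a median of -0.42 and 0 past the threshold (6 at an unadjusted p below 0.05). Of 19 other gut regulators tested, 9 were higher and 10 lower in H3K27ac, with a median of -0.02 and 0 past the threshold (9 at an unadjusted p below 0.05). Their largest differences were Sox9, a crypt factor, at 1.62 (limma adjusted p = 0.0689), Ehf, an ETS factor, at 1.07 (limma adjusted p = 0.0635) and Foxa2, a forkhead factor, at 1.04 (limma adjusted p = 0.222). Of 8 factors of other organs tested, 3 were higher and 5 lower in H3K27ac, with 0 past the threshold by limma (1 at an unadjusted p below 0.05). The largest were Gata3 at -0.87, Gata1 at -0.38 and Pdx1, beside Cdx2, at -0.18.

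Across the 16 lists, the gene whose centred log2 coverage was most like that of a member was found among 15244 to 15279 loci more than 1 Mb away or on another chromosome. These were Zdhhc13 for Cdx1 (Pearson r 0.90), Rxra for Hnf4a (0.93) and Ano6 for Hnf4g (0.91). For Gata4 it was Plac8 (0.95), for Gata6 B3gnt2 (0.91), for Klf5 Nudt9 (0.90) and for Elf3 Bud23 (0.92). Rxra also encodes a nuclear receptor, and any link with Hnf4a was not tested. Within the 8, the most alike were Cdx2 and Gata4 (r 0.88). The member most like Hnf4a was Cdx2 (0.81), and Hnf4g and Klf5 were each most like the other (0.78). These are descriptions over lists that share samples, and were picked as the highest of many.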

How the data were processed

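Each of 8 CUT&Tag samples had 2 deposited peak lists, which give the position, name and score of every peak. Per the submitters' processing notes, the authors used FastQC, Bowtie and SAMtools and the build mm10. The peaks are named after MACS, and its version, its cutoff and any use of control libraries are not given in the sources used here. The deposited names describe the data as downsampled, the depth is unknown, and so no interval that needs it is given. The deposited score has no stated unit and starts at 50. The labels name mouse IgG with H3K27ac and rabbit IgG with H3K9ac.

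Genes came from RefSeq for GRCm38.p6, without strand. Covered base pairs of each locus (gene body and 50 kb on each side) were log2-transformed after adding 500 bp, centred to the median of each list, and fitted with limma 3.58.1 (R 4.3.3, trend, 4 group means) over loci with a mean of at least 1000 bp covered. Peaks overlapping by 1 bp were merged into regions. Groups were taken from the labels and list numbers from the deposited names. The text names the 8 genes, up to 3 nearest neighbours each, the widest constant and most uneven regions, and of each other gene list the 3 with the largest H3K27ac differences. The genes and lists were chosen with earlier results of these data known. Alternatives varied the centring, pseudocount, flank, filter, peak set, gene-end window, merging, list-number block and left-out lists. The fit was tested on simulated data. Python 3.11.15, numpy 2.4.6 and pandas 2.3.3 were used. The most alike gene of Cdx2 is not reported here.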

Additional observations from a re-analysis of the deposited data

How the results depend on the processing

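In none of the settings that keep all lists did limma call a member for fasting, tetracycline or their interaction, the replicate block (0 members) included. It is not settled whether the list numbers mark a pairing. Correlations of same-numbered lists lay between 0.063 and 0.276 (H3K27ac) and between -0.106 and 0.288 (H3K9ac). With the block, the limma unadjusted p for fasting fell to 0.0118 at Hnf4g and 0.0454 at Klf5 (H3K27ac), and to 0.0269 at Hnf4a (H3K9ac). Their adjusted p lay between 0.133 and 0.339. Over all loci, the H3K27ac fasting calls were 133 as reported, 369 with the block, 324 with 100 kb flanks, 50 with 25 kb flanks, 61 without centring, 56 in flanks alone, 14 with a pseudocount of 100 bp and 6 in gene bodies alone. Leaving out a single list gave 6 (without Fast list 1, no tetracycline) to 338 (without Fed list 2, no tetracycline) H3K27ac calls and 0 to 193 for H3K9ac (1 as reported), the 193 without Fast list 2, no tetracycline. No single list left out gave a call among the 8 genes. Without a filter on low coverage, H3K9ac calls were 76. With lists 1 alone, which leave 1 list a group, the H3K9ac fasting values were -0.94 for Cdx2 and -0.92 for Hnf4a. The statements above that no member was called do not cover such fits. Tests within a tetracycline state, and of the interaction, were not run without the lists of 1 number, since no residual spread remains.

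Of 175 single-gene fasting values with all lists, 158 kept their sign and 17 reversed. Without centring, H3K27ac values became 0.10 for Cdx2, 0.16 for Hnf4a, 0.21 for Gata4, 0.16 for Gata6 and 0.23 for Elf3, and H3K9ac 0.048 for Gata4. With every list limited to as many top-scoring peaks as the shortest, H3K27ac became 0.084 for Gata4 and 0.17 for Elf3, and H3K9ac 0.31 for Cdx2, 0.16 for Gata4 and 0.021 for Elf3, and the median of the 8 genes became 0.12 (H3K27ac) and 0.48 (H3K9ac). A pseudocount of 2000 bp gave 0.0071 for Gata4 and 0.024 for Elf3 in H3K27ac, and flanks alone gave 0.36 for Gata4 and 0.028 for Elf3. Flanks of 100 kb gave 0.15 for Gata6, and peaks at least 500 bp wide 0.059 for Elf3, both in H3K27ac. The cause was not tested.

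Leaving out lists reversed 29 of 160 values. The H3K27ac ranges were -0.22 to -0.048 for Cdx2, -0.090 to 0.37 for Cdx1, -0.20 to 0.034 for Hnf4a, -0.18 to 0.12 for Gata4, -0.24 to 0.091 for Gata6 and -0.069 to 0.052 for Elf3. The H3K9ac ranges were 0.16 to 1.09 for Cdx1, -0.94 to 0.31 for Cdx2, -0.079 to 0.74 for Hnf4g, -0.71 to 0.26 for Gata4, -0.21 to 0.34 for Gata6, -0.036 to 0.46 for Klf5 and -0.67 to 0.12 for Elf3. Hnf4a H3K9ac stayed between -0.92 and -0.29, Hnf4g H3K27ac between 0.25 and 0.54 and Klf5 H3K27ac between 0.14 and 0.50. With peaks limited in that way, or to those at least 500 bp wide, the Gata4 region in all Fast and no Fed lists no longer had that pattern. Depth is unknown and limits what a missing peak can show.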
